A study of Mus musculus with 12 samples.

Results

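The type I interferon-stimulated genes described here are a list of 39 genes chosen by name, of 27179 genes in the count table. All 39 were found by symbol, and 38 were tested. Ifit3b, with 3 to 17 counts per library and 96 in all, was too low to test. They were measured by RNA sequencing of sorted hematopoietic stem cells (HSCs), the rare marrow cells from which blood is renewed, in 12 C57BL/6J mice, 3 of each genotype. Group WT is wild-type (WT2, WT3, WT4), and group E carries the Emu-myc transgene (E1, E2, E3). Group C is Casp1 -/- Casp11 -/- (C1, C2, C3), and group CE is Emu-myc Casp1 -/- Casp11 -/- (CE1, CE2, CE3). The Emu enhancer is an immunoglobulin heavy chain enhancer known to drive Myc in B lineage cells. Myc itself averaged 426 ± 28.5 CPM in the WT mice and 434 ± 13.03 in the E mice (SD of 3 mice). Averaged over both transgene genotypes, Myc was lower in the caspase knockout (edgeR, adjusted p under 0.05), as were 11.8% of all genes. Casp1 and Casp11 (listed as Casp4) encode inflammatory caspases. No interferon or other treatment is named in the labels, so all levels are those of untreated cells as far as the labels say, and age, sex and batch are not given.

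Type I interferons are secreted by cells that sense viral or displaced nucleic acid. They bind the receptor made of Ifnar1 and Ifnar2, and the kinases Jak1 and Tyk2 then start a signal that ends in a complex, with Irf9 and Stat2 among its subunits, that binds the interferon-stimulated response element in promoters. The induced genes encode antiviral effectors, nucleic acid sensors and feedback regulators. In HSCs, interferon exposure is known to push quiescent cells into cycle, and stem cells of several kinds are known to keep part of this gene set active without interferon.

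The response element was looked for as the letters GAAA, any pair of bases (NN) and GAAA again, on both strands of RefSeq promoter windows (GRCm38.p6, 250 bases before to 50 bases after the start), with overlapping matches counted. Windows were present for 29 of the 39 genes, and 14 of these held a match (48.3%). Of all 27025 genes with a window, 3.99% held one. The match was in Stat2, Isg15, Ifit1, Ifit3, Ifit3b, Oas1a, Oas3, Ifih1, Eif2ak2, Rsad2, Trim30a, Bst2, Ifitm2 and Ifitm3. It was not in the windows of Irf9, Irf7, Herc6, Ifit2, Oasl1, Oasl2, Adar, Samhd1, Ifitm1, Dtx3l, Sp100, Ifi44, Ifi35, Xaf1 or Lgals3bp. A match is a string of letters and not a shown binding site. The 4 genes with a match that had the highest mean CPM among those given mouse by mouse are printed below. Each stretch runs from 150 bases before to 30 bases after the start. All 4 lie on the minus strand and are written 5′ to 3′ in the direction of transcription, with the element in capitals.
Ifitm2, chr7:140955932-140956111: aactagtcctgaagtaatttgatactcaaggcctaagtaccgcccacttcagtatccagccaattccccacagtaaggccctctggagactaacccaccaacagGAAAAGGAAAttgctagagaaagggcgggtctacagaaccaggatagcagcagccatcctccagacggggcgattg
Ifitm3, chr7:141010715-141010894: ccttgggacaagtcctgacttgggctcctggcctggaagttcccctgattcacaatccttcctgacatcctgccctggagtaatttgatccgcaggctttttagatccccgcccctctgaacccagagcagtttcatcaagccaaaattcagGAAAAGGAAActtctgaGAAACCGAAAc
Bst2, chr8:71537443-71537622: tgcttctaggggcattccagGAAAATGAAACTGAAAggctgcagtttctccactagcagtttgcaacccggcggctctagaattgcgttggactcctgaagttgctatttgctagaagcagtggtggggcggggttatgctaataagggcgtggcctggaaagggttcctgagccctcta
Oas3, chr5:120777630-120777809: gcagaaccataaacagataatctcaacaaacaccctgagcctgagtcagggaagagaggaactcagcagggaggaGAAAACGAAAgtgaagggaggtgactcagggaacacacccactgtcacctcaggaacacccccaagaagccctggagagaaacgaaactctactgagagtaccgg
The match began 46 bases before the annotated start in Ifitm2 and 75 bases before it in Oas3. Bst2 held a pair of overlapping matches beginning 130 and 124 bases before the start. In Ifitm3 both matches lay after the start, beginning at bases 3 and 20. Ifitm1, between Ifitm2 and Ifitm3 on chromosome 7, had no match in its window.

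Facts of the whole series that touch these genes were as follows. Libraries held 24529611 to 34065910 counts, and levels are given as CPM, the count scaled to the normalised library size. C1 and C3 had a count for 22900 and 21247 genes, against 17310 to 18863 in the others. Casp1 averaged 39.1 ± 9.0 CPM in the WT mice, 42.1 ± 3.82 in the E mice, 6.12 ± 0.56 in the CE mice and 5.90 ± 0.70 in the C mice (SD of 3 mice). All 12 HSC markers, among them Procr, Hlf and Mecom, had counts in every library. Y-linked transcripts summed to 91.4 to 121 CPM in the whole of group C and in CE1 and CE2, and CE3 and the mice with intact caspases had at most 0.263 CPM. Sex and the caspase genotype therefore nearly coincide and mostly cannot be told apart. The sum of 10 immediate early and heat shock genes was 4615, 5488 and 11317 CPM in WT2, WT3 and WT4. The Emu-myc mice of group E had 5190 to 6637 CPM, group C 12771 to 13803 and group CE 11717 to 14537.

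Most of the list was expressed without a named stimulus, and the membrane proteins led it. Per kilobase of the longest transcript, a scale on which genes can be compared, Ifitm2 had the highest mean level (598 CPM per kb). Ifitm3 (341), Ifitm1 (225), Bst2 (193) and Ifi27 (118) followed on the same scale. The Ifitm proteins block viral fusion at endosomal membranes, and Bst2 (tetherin) holds budding virions at the cell surface. The lowest on this scale were Mx2 at 1.98 CPM per kb, Ifit1 at 1.58, Ifit3 at 0.81 and Ifit3b at 0.14. Other classical response genes lay higher, such as Ifit2 at 4.28, Usp18 at 6.78, Irf7 at 11.7 and Isg15 at 19.4. Mx1 had no transcript length and is not placed in this order. Ifit3 and Ifit3b are near-identical copies, so the split of reads between them is uncertain, and Ifit1 lies within the span of Ifit1bl1. In all, 15 of the 39 genes overlap another RefSeq gene, among them Usp18, Isg15, Parp9, Dtx3l and Ifi27. The whole span of Ifi27 (6057 bases) lies within Ifi27l2a. Strandedness is not given in the sources used here, so reads within shared bases cannot be told apart. The shared stretch is 8 bases for Adar, 80 for Isg15, 558 for Parp9 and Dtx3l and 15743 for Usp18.

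Mice of one genotype differed from each other slightly more in this list than in the typical gene. The pooled SD within genotypes on the log2 scale had a median of 0.21 over the 38 tested genes and 0.18 over all 14473. It was smallest for Adar, which edits double-stranded RNA (0.07), and largest for Ifit3 (0.48), whose counts were low. The 3 Emu-myc mice did not move together. E3 was above the mean of the 12 libraries for 33 of the 38 genes, whereas E1 was above it for 10 and E2 for 7. E3 had the highest of the 12 values for 10 genes, among them Ifit1, Mx1, Ifi44 and Rtp4, and E1 and E2 had the lowest for 8 genes each. WT3 was above the mean for 35 genes, WT2 for 25 and WT4 for 21. WT4 was the highest library for Oas1a, Oasl1, Ifitm2, Ifitm3 and Ifi27 and the lowest for Ifih1, Eif2ak2, Trim30a, Parp14 and Dtx3l.

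**Figure D1:**
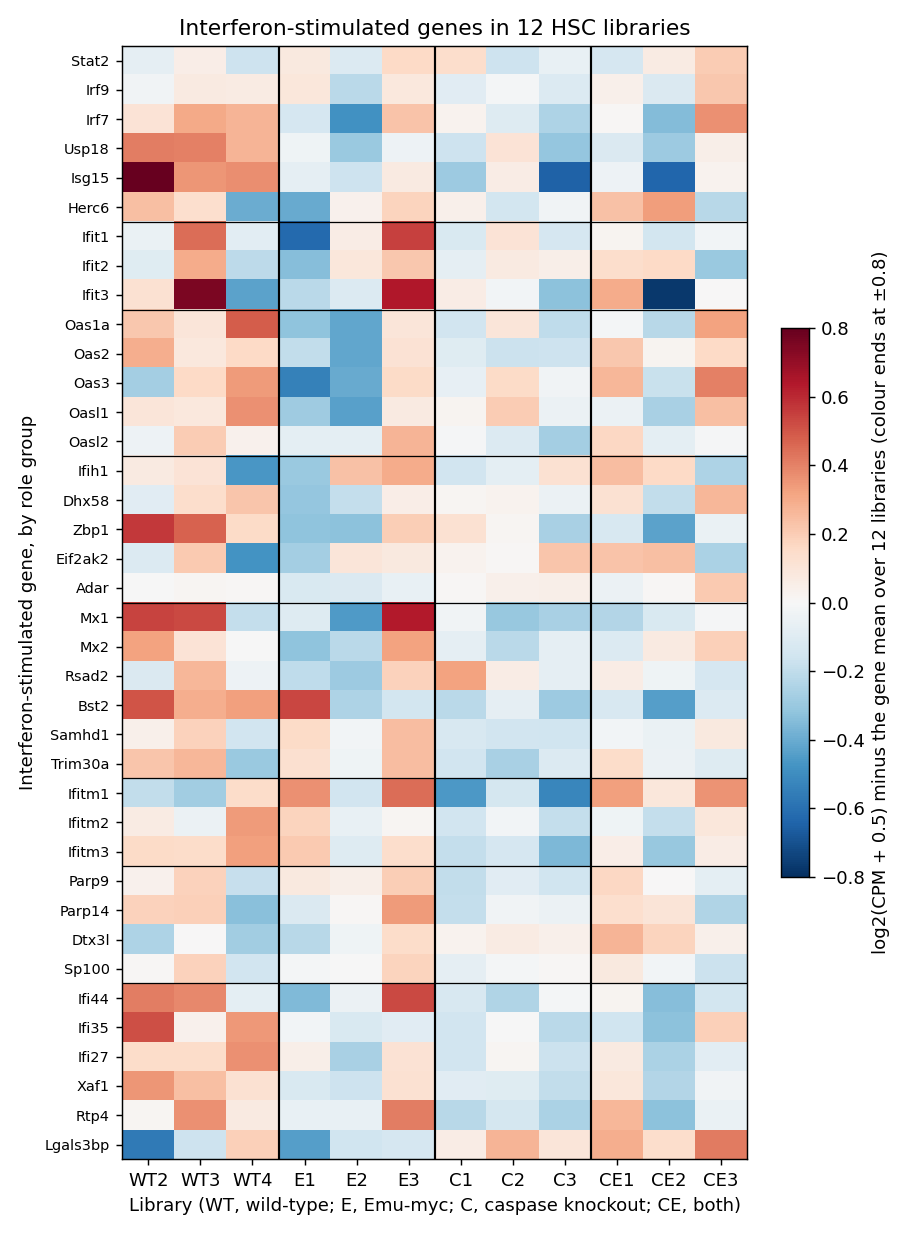
Heat map of the 38 tested interferon-stimulated genes (rows, by role) in 12 libraries (columns, by genotype); colour is log2(CPM + 0.5) minus the gene's mean over the libraries. E3 is mostly above the gene means and E1 and E2 mostly below, and Isg15, Usp18 and Xaf1 are above in all 3 WT libraries.

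Each comparison below uses 1 fit of all 12 libraries with edgeR's quasi-likelihood test, and a gene passed at an adjusted p under 0.05 over the 14473 genes tested. Fold changes are on the log2 scale, with their standard error (SE). In bulk RNA, fewer cells of a type and less RNA per cell cannot be told apart.

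The first question was whether the transgene changed these genes where the caspases were intact (E against WT). None of the 38 passed, against 0.0829% of all genes. DESeq2 and limma voom also passed none (0.332% and 0.117% of all genes), and 10 of the 38 had an unadjusted p under 0.05, 9 of them lower in E, where 6.58% of all genes did. The log2 fold change was below 0 for 28 of the 38 and above 0 for 10, with a median of -0.11 (range -0.67 to 0.34). Of all genes, 50.6% were below 0, and their median was -0.00. The list's median was -0.23 without E3 and -0.05 without E2. The groups did not overlap for 7 genes, all lower in E (Usp18, Isg15, Oasl1, Adar, Ifi35, Ifi27 and Xaf1), where 3.56% of all genes were lower without overlap.

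Usp18, the protease that removes Isg15 from proteins and restrains receptor signalling, had the smallest p. The WT mice (WT2, WT3, WT4, in this order throughout) had 15.9, 15.8 and 14.4 CPM, and the E mice (E1 to E3) had 11.5, 9.55 and 11.5. Every WT value was above every E value, and the log2 fold change was -0.50 (SE 0.15, adjusted p = 0.444). Isg15 (chr4:156199424-156200818) encodes the ubiquitin-like protein that is conjugated to targets. It was at 27.9, 18.02 and 18.2 CPM in WT and 13.3, 12.4 and 14.7 in E. The groups did not overlap, and the log2 fold change of -0.67 (SE 0.22) did not pass (adjusted p = 0.583). It passed in 1 alternative, with no low-count filter (adjusted p = 0.011, where 217 of all genes passed), and the adjusted p ranged from 0.261 to 0.942 in the others. WT2 stood above the other WT mice for this gene. Zbp1, a sensor of left-handed nucleic acid that can trigger necroptosis, was at 10.7, 10.04 and 7.97 CPM in WT and 5.59, 5.57 and 8.22 in E. E3 lay above WT4, so these groups overlapped, and the log2 fold change was -0.57 (SE 0.19, adjusted p = 0.587).

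By role, all 5 oligoadenylate synthetase family genes were lower in E than in WT (median log2 fold change -0.34), and none passed. Oas1a, Oas2 and Oas3 make the messenger that activates the RNA-cutting enzyme RNase L. Oas1a was at 40.3, 37.1 and 48.6 CPM in WT and 27.6, 25.8 and 37.1 in E. E1 and E2 were the lowest of all 12 libraries for it, and E3 lay at the level of WT3. The 6 genes of mixed function (Ifi44, Ifi35, Ifi27, Xaf1, Rtp4 and Lgals3bp) were also all lower in E (median -0.21). Ifi27, the most abundant of them by CPM, was at 127, 127 and 147 CPM in WT and 118, 95.3 and 124 in E. Parp9, Parp14, Dtx3l and Sp100, which act in ADP-ribosylation and nuclear bodies, were all slightly higher (median 0.07). Ifit2, a binder of viral RNA and the most abundant of its family by CPM, was at 15.1, 20.0 and 13.9 CPM in WT and 12.7, 17.3 and 18.9 in E. Its groups overlapped throughout. Adar was at 133, 135 and 134 CPM in WT and 123, 123 and 128 in E, a log2 fold change of -0.11 (SE 0.08, adjusted p = 0.792).

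Without the caspases (CE against C), the median of the list lay on the other side of 0. This pair shares no library with E against WT. None of the 38 passed, against 0.207% of all genes, 2 had an unadjusted p under 0.05 (5.14% of all genes did), and DESeq2 and limma voom passed 1, Ifitm1 (0.456% and 0.753% of all genes). The log2 fold change was above 0 for 29 of 38 and below 0 for 9, with a median of 0.08 (range -0.17 to 0.63). Of all genes, 52.2% were above 0, and their median was 0.01. The list's median was 0.04 without CE3 and 0.15 without CE2. The groups did not overlap for 5 genes, all higher in CE (Oas2, Samhd1, Trim30a, Ifitm1 and Parp9), where 7.03% of all genes were higher without overlap. Of the 38 genes, 20 were lower in E than in WT and higher in CE than in C, and 8 were lower in both. The share of all genes with these signs is not given, so the counts cannot be read as particular to the list.

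Ifitm1 (chr7:140967429-140969827) was at 141, 176 and 135 CPM in the C mice and at 243, 206 and 249 CPM in the CE mice. The groups were apart, and the log2 fold change was 0.63 (1.55-fold, SE 0.16, adjusted p = 0.255). In WT it was at 169, 160 and 215 CPM and in E at 250, 174 and 264, where E2 overlapped WT. It had the largest transgene difference of the list averaged over both caspase genotypes, a log2 value of 0.49 (SE 0.11, adjusted p = 0.0815). Its neighbours gave other values. Ifitm2 was at 408, 377 and 494 CPM in WT and 441, 374 and 394 in E. Its values were 350, 383 and 341 CPM in C against 381, 340 and 415 in CE. All 4 genotypes overlapped for Ifitm2, and its averaged transgene difference was -0.00 (SE 0.08). Oas2 was at 23.4, 22.2 and 22.3 CPM in C and 29.2, 25.5 and 28.0 in CE, without overlap, and the log2 fold change was 0.29 (SE 0.13, adjusted p = 0.920). Parp9 was at 33.3, 35.9 and 34.1 CPM in C and 42.9, 38.2 and 36.1 in CE, again apart by a small margin (log2 0.18, SE 0.11, adjusted p = 0.999).

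Whether the transgene effect itself differed by caspase genotype was tested as the difference of the 2 differences. No gene of the list passed, and none of all genes did (0%). The smallest adjusted p of the list was 1.0. At an unadjusted p under 0.05 there were 6 genes, all with a difference above 0 (Usp18, Isg15, Oas1a, Oas2, Ifi35 and Xaf1), where 2.11% of all genes passed that mark. DESeq2 and limma voom also passed none. The difference was above 0 for 32 of the 38 genes (51.0% of all genes), with a median of 0.23 (range -0.08 to 0.75). The median was 0.11 without E2 and 0.37 without E3, so single Emu-myc mice moved it by more than 1.5 times. Oas2 had the smallest p (log2 difference 0.62, SE 0.18), then Oas1a (0.61, SE 0.23) and Usp18 (0.50, SE 0.21). All 5 oligoadenylate synthetase family genes had a difference above 0, with a median of 0.50, and so did the 3 Ifitm genes, with a median of 0.29.

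**Figure D2:**
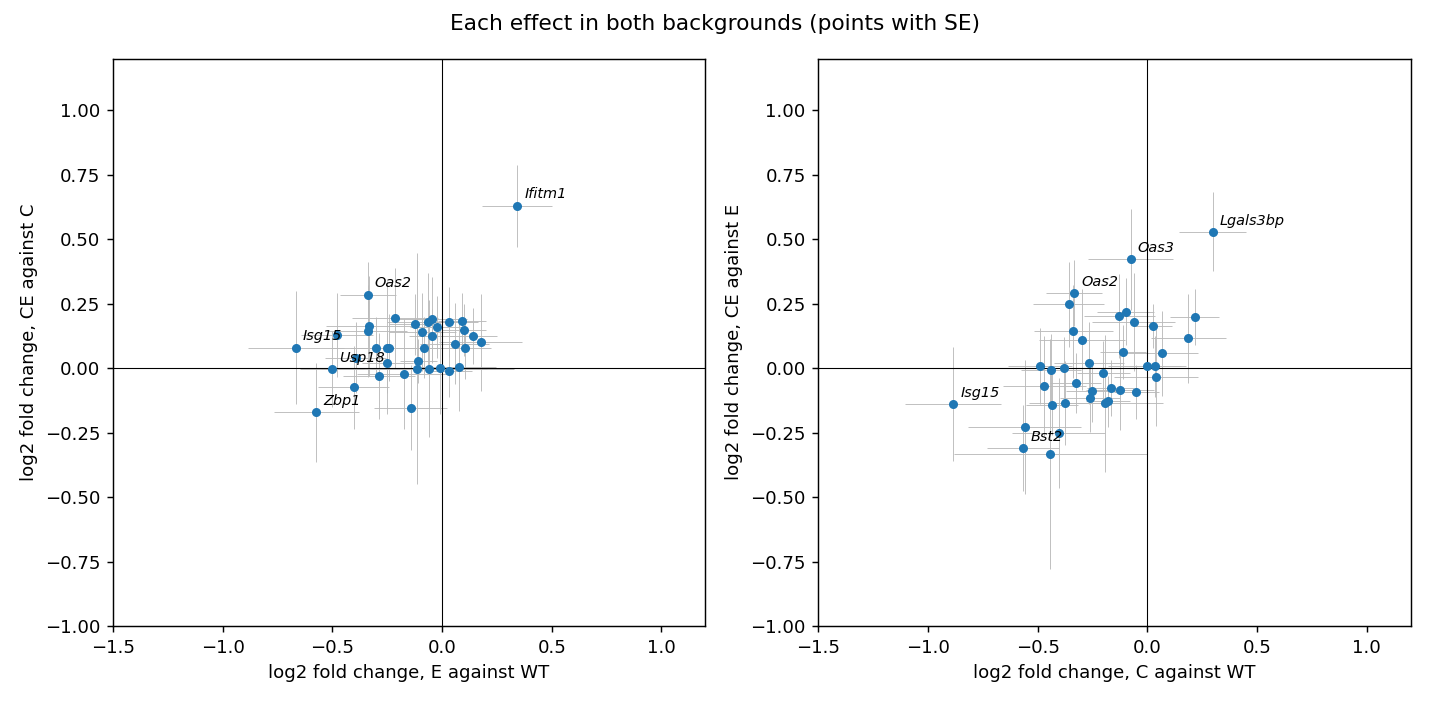
Scatter of log2 fold changes of the 38 tested genes, with the Emu-myc effect with (x) and without (y) the caspases at left and the caspase knockout effect without (x) and with (y) the transgene at right; bars are SE. At left 20 genes lie below 0 on x and above 0 on y, and Ifitm1 is highest on both axes; at right Isg15 lies lowest on x and Lgals3bp highest on both axes.

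Averaged over both caspase genotypes, which sets 6 transgenic libraries against 6 others, no gene of the list passed for the transgene (0.539% of all genes did). At an unadjusted p under 0.05 there were 3 (8.98% of all genes), which were Ifitm1 higher and Zbp1 and Usp18 lower, and DESeq2 and limma voom passed Ifitm1 alone (1.44% and 1.22% of all genes), as did edgeR without WT4 or without E2. The averaged log2 value was -0.37 (SE 0.14, adjusted p = 0.395) for Zbp1 and -0.25 (SE 0.10, adjusted p = 0.460) for Usp18.

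The next question was how caspase knockout mice differed from wild-type mice without the transgene (C against WT). Y-linked transcripts summed to 91.4 to 101 CPM in C and to at most 0.169 CPM in WT. Sex and caspase loss therefore coincide fully in this pair and cannot be told apart within it. In edgeR none of the 38 genes passed (0.656% of all genes did). DESeq2 passed 5 (Bst2, Ifi35, Ifitm3, Isg15 and Usp18) and limma voom 7, all lower in C, and both tools also passed more of all genes, 8.26% and 12.3%. At an unadjusted p under 0.05 there were 12, all lower in C, where 23.2% of all genes passed that mark. The log2 fold change was below 0 for 30 of 38, with a median of -0.23 (range -0.89 to 0.30). Of all genes, 51.8% were below 0, and their median was -0.01. The groups did not overlap for 12 genes lower in C (Irf7, Usp18, Isg15, Oas2, Zbp1, Mx2, Bst2, Ifitm3, Ifi35, Ifi27, Xaf1 and Rtp4) and 1 higher (Dtx3l). Of all genes, 13.9% were lower and 12.5% higher without overlap. Single libraries changed the count: 6 genes passed without WT4, 2 without WT3 and 1 without E1. The shares of all genes in those fits are not given, so this change cannot be read as particular to the list. WT4 was also the WT mouse with the highest sum of immediate early genes, whose part was not tested. With a term for Y-linked transcripts, which in this pair is set by the CE mice alone, none passed, and only 1 of all genes did. The log2 fold changes in that fit were -0.54 for Isg15, -0.26 for Ifitm3 and -0.40 for Bst2.

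Isg15 was at 11.3, 14.6 and 8.77 CPM in C, all under the lowest WT value of 18.02. The log2 fold change was -0.89 (1.85-fold, SE 0.22, adjusted p = 0.0567). Ifitm3 (chr7:141009590-141010744) was at 254, 253 and 287 CPM in WT and 201, 208 and 178 in C. The groups were apart by more than the spread within either, and the log2 fold change was -0.43 (SE 0.12, adjusted p = 0.0665). Bst2 (chr8:71534255-71537472) was at 211, 182 and 187 CPM in WT and 128, 142 and 121 in C, again without overlap (log2 -0.57, SE 0.17, adjusted p = 0.0743). By role, all 5 oligoadenylate synthetase family genes were lower in C (median log2 fold change -0.20), as were all 3 Ifitm genes (-0.27), 5 of 6 virus restriction genes (-0.28) and 5 of 6 genes of mixed function (-0.38), none of which passed. Dtx3l, the ubiquitin ligase partner of Parp9, was at 52.5, 62.5 and 51.5 CPM in WT and 63.6, 65.4 and 64.3 in C. Its overlapping partner Parp9 had no such shift (39.1, 43.4 and 33.5 CPM in WT and 33.3, 35.9 and 34.1 in C).

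In mice with the transgene (CE against E), which share no library with the pair just described, no gene of the list passed in edgeR (1.58% of all genes did). At an unadjusted p under 0.05 there were 3, all higher in CE (22.6% of all genes), and DESeq2 and limma voom passed 1, Lgals3bp, where they passed 8.17% and 9.62% of all genes. This gene also passed in edgeR without WT2 or without WT4, mice outside the pair that share in the estimate of the spread. The median log2 fold change was -0.00 (range -0.33 to 0.53), with 18 genes higher and 20 lower (49.6% of all genes were lower). Adar and Lgals3bp were higher in CE without overlap, where 14.8% of all genes were. Lgals3bp (chr11:118392747-118401959) encodes a secreted glycoprotein that binds galectin-3. It was at 72.1, 87.6 and 89.3 CPM in E and 120, 108 and 131 in CE. Every CE value was above every E value, and the log2 fold change was 0.53 (1.44-fold, SE 0.15, adjusted p = 0.0761). Oas3 was at 24.6, 27.0 and 40.2 CPM in E and 43.4, 31.8 and 47.7 in CE. E3 lay above CE2, and the log2 fold change was 0.42 (SE 0.19, adjusted p = 0.214). Oas2 gave a log2 fold change of 0.29 (SE 0.13, adjusted p = 0.191). Irf9, a DNA-binding subunit of the complex that also holds Stat2, was at 106, 85.3 and 105 CPM in E and 102, 91.5 and 115 in CE. It was at 97.4, 104 and 104 in WT and 93.0, 98.3 and 92.1 in C, so all 4 genotypes overlapped. Oasl2, the most abundant of its family by CPM, was at 37.5, 37.4 and 48.0 CPM in E and 44.6, 37.5 and 39.4 in CE, which also overlapped.

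**Figure D3:**
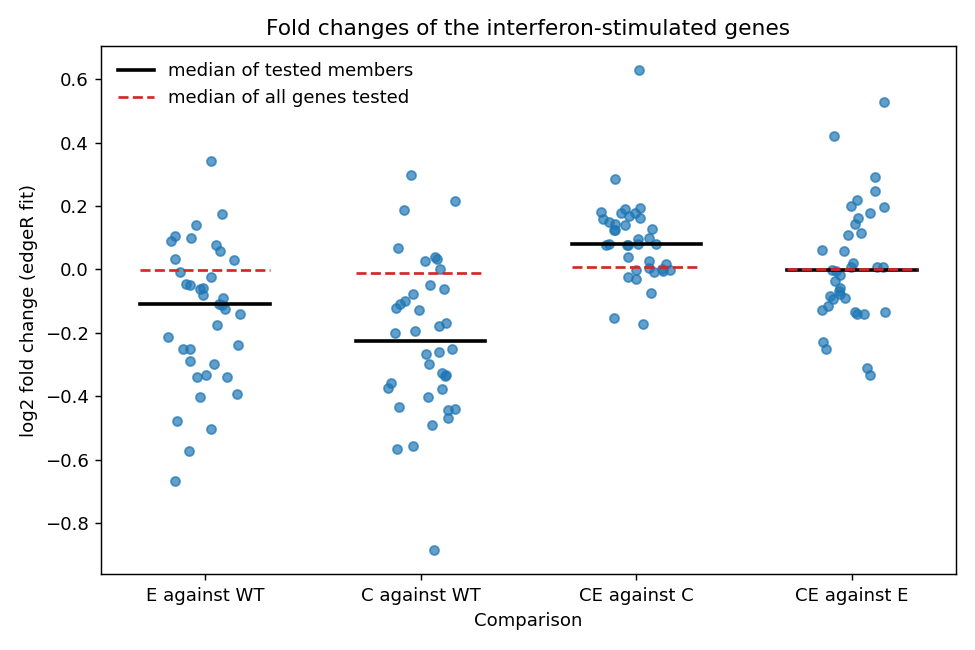
Log2 fold change of each of the 38 tested genes in the 4 comparisons of 2 genotypes; black lines are the medians of the list and red dashed lines those of all 14473 genes. The list's median is -0.11 for E against WT, -0.23 for C against WT, 0.08 for CE against C and -0.00 for CE against E.

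Averaged over both transgene genotypes, 4 of the 38 genes passed for the caspase knockout: Isg15, Bst2 and Ifitm3 fell and Lgals3bp rose. This share lies under the background, since 21.0% of all genes passed, 9.26% higher and 11.8% lower. Isg15 fell by 0.51 on the log2 scale (1.43-fold, SE 0.16, adjusted p = 0.0308), Bst2 by 0.44 (1.35-fold, SE 0.12, adjusted p = 0.0187) and Ifitm3 by 0.29 (1.22-fold, SE 0.08, adjusted p = 0.0265). Lgals3bp rose by 0.41 (1.33-fold, SE 0.11, adjusted p = 0.0170). In the other libraries, Bst2 was at 215, 126 and 134 CPM in E and 136, 110 and 138 in CE. E1 was higher than any WT mouse, and E2 and E3 overlapped CE. Ifitm3 was at 264, 213 and 252 CPM in E and 237, 185 and 238 in CE, with overlap. Isg15 was at 13.6, 8.83 and 14.3 CPM in CE, which overlapped E. Lgals3bp was at 66.0, 87.4 and 112 CPM in WT and 102, 119 and 105 in C, where WT4 overlapped C.

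The 4 calls moved with other measures. With a term for Y-linked transcripts, none passed (adjusted p from 0.198 for Lgals3bp to 0.704 for Isg15), and the log2 values were -0.23 for Isg15, -0.30 for Bst2, -0.14 for Ifitm3 and 0.58 for Lgals3bp. Only 2 of all genes passed in that fit, and its Y-linked term is set by the CE mice alone. Without C1 and C3 together, none passed either, and 20 of all genes did. Leaving out single libraries gave 2 calls without WT2, E1, C1 or CE2, 6 without WT3, 7 without WT4 and 1 without C3, which was Lgals3bp. The shares of all genes that passed in these fits are not given, so the changes cannot be read as particular to these genes. Lgals3bp passed without any single library, Bst2 did not without WT2 or C3, and Ifitm3 did not without E1, C1, C3 or CE2. Isg15 did not pass without WT2, E1, E3, C1, C3 or CE2. The marker counts below are of genes that passed in the main fit, where 11.8% of all genes passed as lower and 9.26% as higher. Of the immediate early and heat shock genes, 9 of 10 passed as higher in the knockout. Macrophage markers fell for 5 of 11 tested (summed level 133 to 190 CPM over all groups, with Marco near 0). T and NK cell markers fell for 3 of 6 tested (133.5 to 228.4 CPM summed over all groups), and HSC markers rose for 4 of 12 (662 to 865 CPM summed with intact caspases, 785 to 952 without). Neutrophil and monocyte markers passed as lower for 2 of 10, erythroid markers for 1 of 7 and megakaryocyte markers for 1 of 5. Of 7 B lineage markers, 1 passed as higher. Counts this small are not read as a change in these cells. Plasmacytoid dendritic cell markers fell for 4 of 8 and rose for 1 (summed levels 34.3 to 92.5 CPM with intact caspases, 46.5 to 49.0 in C and 51.2 to 62.2 in CE). The part of these cells and of the immediate early genes in the 4 calls was not tested.

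Set side by side over the 4 genotypes, a few genes had wild-type mice alone at the top. Every WT value was above all 9 other libraries for Usp18, Isg15, Ifi27 and Xaf1, which is 10.5% of the 38 genes, where 0.594% of all genes had this pattern. Ifi27 lies wholly within Ifi27l2a, so its reads may in part belong to that gene. For Xaf1, which promotes apoptosis, the lowest WT mouse and E3 both rounded to 23.7 CPM, so the gap is small. Usp18 averaged 15.4 ± 0.844 CPM in WT mice. Its mean was 10.9 CPM in each other genotype, with an SD of 1.13 in E, 1.72 in C, and 1.34 in CE (n = 3 each). Isg15 averaged 21.4 ± 5.63 CPM in WT mice, against 13.5 ± 1.18 in E, 12.2 ± 2.96 in CE and 11.6 ± 2.91 in C (SD of 3 mice). The values of E, C and CE overlapped one another for both genes. Zbp1 was at 7.77, 7.19 and 5.85 CPM in C and 6.47, 5.16 and 6.83 in CE, and WT4 fell within the range of the others. Adar alone was lower in every E mouse than in all 9 other libraries (0.698% of all genes were). No gene of the list set C or CE apart from all others.

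**Figure D4:**
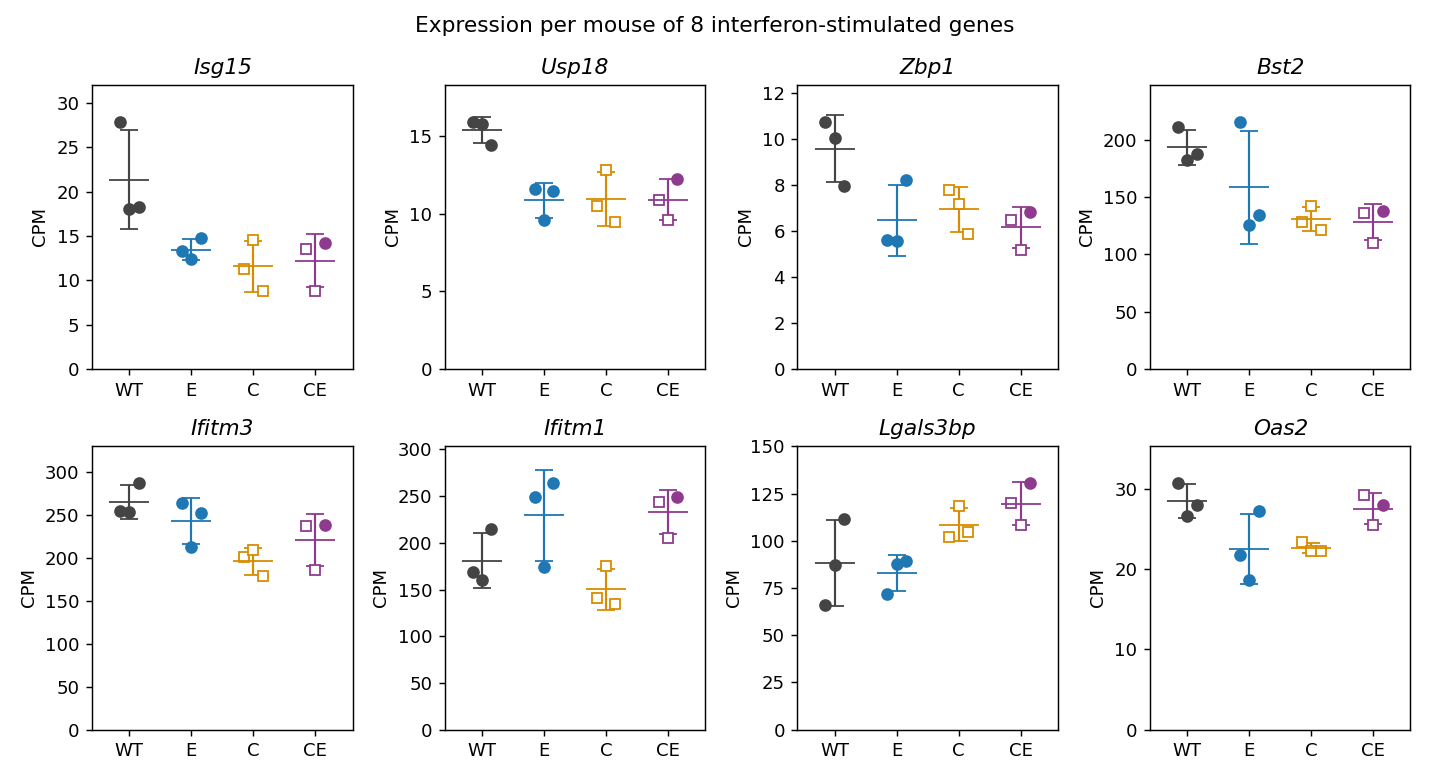
CPM of 8 interferon-stimulated genes in each mouse, by genotype; bars are mean ± SD of 3 mice, filled circles are libraries without Y-linked transcripts and open squares libraries with them. Usp18 and Isg15 are highest in the 3 WT mice, and CE3, the knockout library without Y-linked transcripts, is the highest of the 3 CE libraries for Isg15, Bst2 and Ifitm3, close to CE1 and above CE2.

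The rest of the pathway was described from lists of 88 further genes, of which 75 were tested. The 9 interferon genes listed were nearly silent, and none was high enough to test. Ifnb1 had 0 counts in every library, which allows an expected count of up to 3 in each. Ifng, which is a type II interferon, had 53 counts in all 12 together. The list also holds the type III genes Ifnl2 and Ifnl3, and of the Ifna genes only Ifna1, Ifna2 and Ifna4. The type I receptor and its kinase Jak1 were present in every mouse. Ifnar1 ranged from 80.1 to 97.1 CPM, Ifnar2 from 139 to 175 and Jak1 from 154 to 222, and none of these 3 passed in any of the 7 contrasts. None of the 75 passed for E against WT, C against WT, CE against E or the difference of the transgene effects. Of all genes, 0.0829%, 0.656%, 1.58% and 0% passed in this order.

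Jak2, a kinase of other cytokine receptors, was the sole one of the 75 that passed for the transgene. Of all genes, 0.207% passed in CE against C and 0.539% for the averaged transgene effect. The levels of Jak2 were as follows. Its mean was 56.9 ± 7.37 CPM in WT against 90.3 ± 9.47 in E, and 57.7 ± 3.17 in C against 91.1 ± 11.95 in CE (SD of 3 mice). It rose 1.58-fold in CE against C (log2 0.66, SE 0.12, adjusted p = 0.0383), and the value was 0.67 in E against WT (adjusted p = 0.0716). Averaged over both caspase genotypes it was 0.66 (SE 0.09, adjusted p = 0.00121) and passed without any single library. The call in CE against C was lost without any of WT2, E2, E3 or the 6 libraries of the pair. Jak2 lies on chromosome 19, 5.24 Mb from the Ifit cluster (chr19:34550550-34650009). Ifit2, at the near end of that cluster, had log2 fold changes of -0.01 in E against WT and 0.00 in CE against C.

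For the averaged caspase knockout, 15 of the 75 passed, against 21.0% of all genes. Higher were Socs3, a brake on cytokine receptors (log2 0.55), the DNA sensor Cgas (0.20), Helz2 (0.38) and Rnf213 (0.45). Lower were 11 genes. They included B2m, the light chain of MHC class I (log2 -0.38, SE 0.08, adjusted p = 0.00647), and Psmb9, a subunit of the immunoproteasome (-0.35, SE 0.08, adjusted p = 0.0116). Ifi204 (-0.76), Ifi209 (-0.71), Slfn2 (-0.68), Ms4a4c (-0.63), Ifi27l2a (-0.61), Ptpn2 (-0.35), Nmi (-0.28), Sp110 (-0.22) and Apobec3 (-0.18) were the others. Psmb9 was at 283, 246 and 287 CPM in WT against 200, 212 and 187 in C. With the transgene it was at 290, 223 and 231 CPM in E against 204, 189 and 232 in CE. All C values lay under all WT values for it, while CE3 lay above E2 and E3. None of the 15 passed with the term for Y-linked transcripts, a fit in which 2 of all genes passed. Slfn2 changed sign with that term (log2 0.083, adjusted p = 0.885). The term is set by CE3 against CE1 and CE2 alone, so this change rests on 1 mouse. Of the 15, Apobec3, Cgas, Ifi204, Nmi and Sp110 lost the call without several single libraries and Ms4a4c without E1. In the same contrast, 9 of 10 immediate early and heat shock genes passed as higher and 5 of 11 macrophage markers as lower. Their part was not tested.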

How the data were processed

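Total RNA of sorted HSCs was sequenced, 1 library per mouse, 3 mice per genotype. The deposited table holds raw counts per gene, all whole numbers and not normalised as far as the values show. The submitters' processing notes name STAR 2.5.3 and mm10. Which counter, annotation, strand setting or filter the authors used is not given in the sources used here. RefSeq (GRCm38.p6) supplied symbols and positions for 25275 of 27179 gene numbers. The remaining 1904 stayed in the fit by number, with 0.546 to 2.45% of each library's counts. Transcript lengths came from GENCODE (the longest transcript).

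Counts were fitted with edgeR 4.0.16 in R 4.3.3: TMM factors, filterByExpr by group, group means over all 12 libraries, and two-sided quasi-likelihood F tests with Benjamini-Hochberg adjustment over the 14473 genes tested, in 7 contrasts. The contrasts were the 4 pairs of genotypes, the difference between the transgene effects, and each effect averaged over the other genotype. The pipeline was tested on simulated data. The members and gene lists were chosen with earlier results of these data known. Genes given mouse by mouse are those that passed in any contrast, the most abundant by CPM of each role group, and the 3 with the smallest unadjusted p in each contrast; others are named by count or pattern. Alternatives used RLE factors, no filter or a stricter one, DESeq2 1.42.0, limma 3.58.1 (voom with quality weights), only the groups compared, the replicate number as a block, a Y-linked covariate, and the removal of C1 and C3 together or of each library in turn. Same-numbered mice did not deviate together (15 pairs, correlations from -0.36 to 0.24), and the labels do not pair them. Replicates differed by more than sampling noise, most so among the WT mice. Each library is a separate mouse, and n counts mice. Some results under the rule for named genes are left out and not reported here.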

Additional observations from a re-analysis of the deposited data

How the results depend on the processing

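The number of the 38 genes that passed depended on the processing in most comparisons. With no low-count filter it was 1 for E against WT, CE against C, CE against E and the averaged transgene effect, and 7 for C against WT, where 217, 203, 1172, 339 and 1554 of all genes passed in this order. The 1 gene for E against WT was Isg15. DESeq2 gave 1 for CE against C, CE against E and the averaged transgene effect, and 5 for C against WT. Limma voom gave 1 for those same 3, 7 for C against WT and 11 for the averaged knockout, where it passed 29.8% of all genes. Fitting only the groups compared gave 1 for CE against C and for CE against E (110 and 843 of all genes). With the replicate number as a block, which the check of the mice does not back as a pairing, it was 6 for C against WT, 1 for CE against E and 7 for the averaged knockout (14.1%, 10.2% and 30.6% of all genes). The averaged knockout gave 0 with the Y-linked covariate and 0 without C1 and C3 together, where the lone remaining C library was taken to vary as the rest do. The cause of these changes was not tested. Leaving out 1 library at a time gave 0 to 6 for C against WT, 0 to 1 for CE against E and for the averaged transgene effect, and 1 to 7 for the averaged knockout. These counts stand without the share of all genes in the same fits. The list's count stayed at 0 for E against WT, CE against C and the difference of the transgene effects. The median of that difference ranged from 0.11 to 0.37 in those fits, and the other medians moved by less than the spread between mice (0.12 on the log2 scale), though by over 1.5 times for E against WT (-0.23 to -0.05) and CE against C (0.04 to 0.15). The median for CE against E, near 0, ran from -0.06 to 0.11. Slfn2 for the averaged knockout changed sign with the Y-linked covariate (log2 0.083). With 3 mice a group, Ifit3b and Ifit3, at 3 to 77 counts a library, are the least precise.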
